A study of Mus musculus with 38 samples.

Results

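In hepatocytes given glucagon, 13560 sites of phosphorylated CREB were set against 28229 sites of total CREB, out of 302614 regions in all the deposited lists of the series. Phospho-CREB lay mostly within the map of total CREB: 11378 of its 13560 sites shared at least 1 base with a total CREB site, whereas 11388 of the 28229 total CREB sites carried phospho-CREB, that is, shared a base with one of its sites. With both lists cut to equal length by density, the shares were 67.9% and 67.1%. The denser a total CREB site, the more often it carried phospho-CREB, from 97.3% of the densest decile of the list to 3.01% of the least dense one. The members are the regions of 2 lists, taken by the names of the lists and not by a measured value. Earlier results of these data were known when the lists were chosen.

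CREB is a transcription factor that sits on cAMP response elements in DNA. Glucagon, the fasting hormone of the pancreas, raises cAMP in hepatocytes and activates protein kinase A, which phosphorylates CREB. The phosphorylated form recruits the coactivators CBP and p300, and in liver the factor is known for driving genes of glucose production. An antibody against total CREB binds both forms, so that the total map holds sites with and without the phosphate.

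The study mapped transcription factors and histone acetylation by chromatin immunoprecipitation and sequencing in livers of fed and fasted mice and in hepatocytes isolated from C57BL/6 mice by collagenase perfusion. The phospho-CREB list carries in its name the target, the hepatocytes, glucagon and 2 library numbers. It matches none of the 38 labelled samples, so the dose, time, antibody and number of libraries behind it are not known here. Nor is it known whether its hepatocytes came from the same preparations. The total CREB list comes from 2 samples of hepatocytes given 10 nM glucagon for 1 h and the antibody CREB (48H2). Other hepatocyte lists used below are total CREB and the glucocorticoid receptor (GR) after 10 nM glucagon with 1.7 uM corticosterone for 1 h (2 samples each), total CREB in untreated cells (1 sample), and a phospho-CREB list of untreated cells that likewise matches no sample. The liver lists are phospho-CREB and total CREB in livers of 24 h fasted and of fed mice, and the acetylated histone H3K27ac, a mark of active enhancers and promoters, in livers of mice fasted 24 h or 10 h or fed (3 samples each). The age and sex of the mice are not used here. Isolated hepatocytes lack the other cells of the liver, and the hepatocyte label was not checked against marker genes, since the lists hold regions and no expression.

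Each list gives 1 value per site for its libraries together, the highest tag density in the site. There are thus no replicate errors and no tests in what follows: intervals are 95% Wilson intervals for counts of sites, cover counting error only and say nothing of how far a second experiment would differ. Sequencing depth and the scaling of the density are not known, so densities are ranked within a list and never compared between lists, and a site that is not listed may still be bound. The phospho-CREB sites had a median density of 19.8 (range 1.23 to 1870), a median width of 660 bp and covered 9.63 Mb. The total CREB sites had a median density of 10.5 (range 0.309 to 510), a median width of 590 bp and covered 18.2 Mb. A site is the likelier to meet one of the other list the more sites that list holds and the wider they are.

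The phospho-CREB list was not uniform along the genome. The running number that the authors gave each region skips values along the list. On chromosomes 1, 2, 7 and 10 the phospho-CREB list spanned 1.43 to 1.66 running numbers per site, against 2.72 to 9.64 on the other 17 chromosomes; the total CREB list spanned 1.35 to 1.41 and 1.23 to 2.14. These 4 chromosomes held 4484 of the 13560 phospho-CREB sites and 7057 of the 28229 total CREB sites. The untreated phospho-CREB list stood apart on the same chromosomes, with 5.90 to 6.65 running numbers per site on them and 10.7 to 16.9 on the others. The 4 chromosomes were set apart by this number after the data were seen. The files do not say what this number counts, and its part in the results was not tested, so results that turn on these chromosomes are given with and without them.

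Of the phospho-CREB sites, 83.9% (83.3 to 84.5%) lay at a total CREB site and 2182 did not. Of the total CREB sites, 40.3% (39.8 to 40.9%) carried phospho-CREB and 16841 did not. These shares moved with the lengths of the lists: cut to equal length by density, 67.9% of phospho-CREB sites and 67.1% of total CREB sites lay at a site of the other list. The untreated lists gave another picture, since 7.96% (7.46 to 8.50%) of the 10488 untreated phospho-CREB sites lay at an untreated total CREB site. The untreated phospho-CREB list shared 5.55% of its sites with the phospho-CREB list of glucagon-treated cells. Its sites were narrower, at a median of 412 bp against 660 bp. They numbered 8.97% of its highest running number, against 27.1% in the glucagon list. Whether these differences between the lists bear on the shares was not tested.

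The share at a site of the other list climbed with density in both lists. In the phospho-CREB list, cut into 10 deciles by density with decile 1 the densest, it was 99.3% (98.7 to 99.7%) in the densest decile, 90.5% (88.8 to 91.9%) in decile 5 and 71.2% (68.7 to 73.5%) in decile 9. It was 39.4% (36.8 to 42.0%) in the least dense decile, which held 822 of the 2182 sites without total CREB. Among the 100 densest phospho-CREB sites 99 lay at a total CREB site, and among the 1000 densest 995 did.

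In the total CREB list the share that carried phospho-CREB was 97.3% (96.7 to 97.9%) in the densest decile, 83.7% (82.3 to 85.0%) in decile 2 and 63.3% (61.5 to 65.1%) in decile 3. It was 36.3% (34.6 to 38.1%) in decile 5, 14.5% (13.2 to 15.8%) in decile 8 and 3.01% (2.44 to 3.71%) in the last. Among the 100 densest total CREB sites 97 carried phospho-CREB, and among the 1000 densest 981 did. The intervals of neighbouring deciles did not overlap anywhere in the total CREB list, whereas some of those of the phospho-CREB list did.

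**Figure D1:**
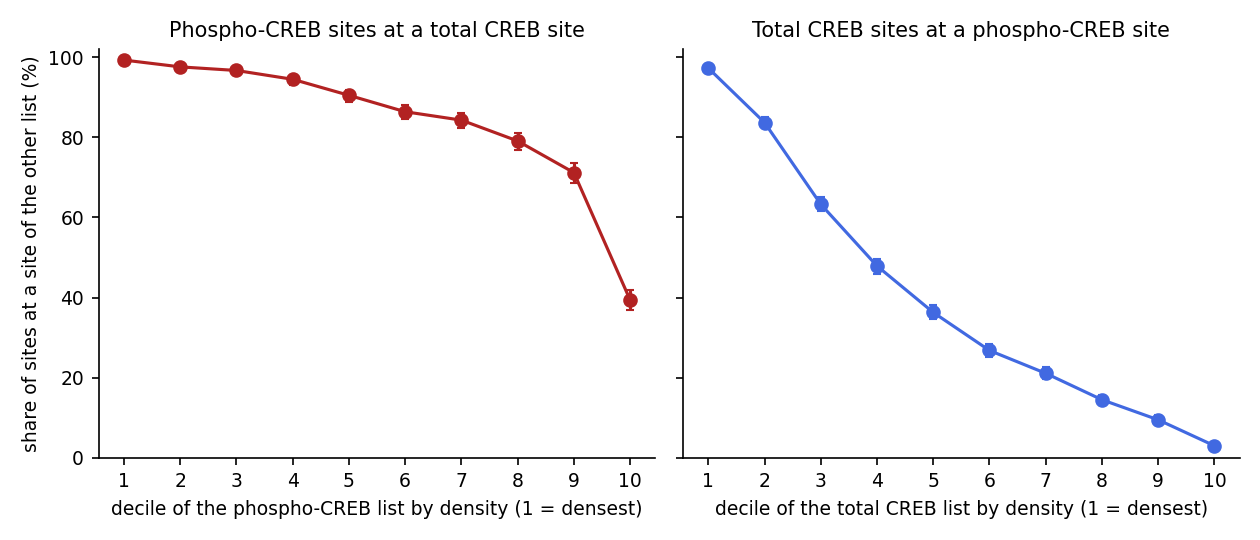
Share of phospho-CREB sites at a total CREB site (left, %) and of total CREB sites at a phospho-CREB site (right, %) by decile of the list's own density, 1 being the densest; points are shares of all sites of a decile and bars are 95% Wilson intervals. The left curve stays above 70% until the last decile, at 39.4%, while the right one runs from 97.3% to 3.01%.

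Sites without a partner were narrower and less dense. The phospho-CREB sites had a median width of 695 bp with total CREB and 467 bp without, and median densities of 22.9 and 10.7. The total CREB sites had a median width of 806 bp with phospho-CREB and 461 bp without, and median densities of 19.1 and 8.04. Width and density move together in both lists, with a Spearman correlation of 0.809 over the phospho-CREB sites and 0.814 over the total CREB sites.

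Where the lists met, they met nearly centre on centre. The matched phospho-CREB site and its densest total CREB partner had midpoints 54.0 bp apart at the median, and 90% of them lay within 212 bp. They shared a median of 644 bases, and 42 of the 11378 shared under 50. The phospho-CREB site had a median width of 695 bp and its partner 816 bp. The phospho-CREB site lay wholly inside its partner in 48.6% of cases, and the partner lay inside the phospho-CREB site in 14.8%. There were 11586 overlapping pairs, since 184 phospho-CREB sites touched more than 1 total CREB site and 195 total CREB sites touched more than 1 phospho-CREB site.

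The order of densities was largely shared. Over the 11378 matched phospho-CREB sites the Spearman correlation of phospho-CREB with total CREB density was 0.739. It was 0.607 after the ranks of both widths were taken out. This correlation is across sites of 2 lists, which share the chromosomes and the widths of the peaks, and sites are not replicates. It was 0.751 without chromosomes 1, 2, 7 and 10, and 0.590 without sites that overlap a CREB or phospho-CREB site of liver.

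Agreement of rank was tightest at the top. Of the 1347 matched sites in the densest phospho-CREB decile, 1267 (94.1%) had a partner in the densest total CREB decile. Seen from the total CREB list, 1272 of the 2748 phospho-CREB carriers in its densest decile (46.3%) had a partner in the densest phospho-CREB decile, which holds 1356 sites in all. The median partner of a site in phospho-CREB decile 2 stood at percentile 91.4 of total CREB density (100 being the densest), that of decile 5 at 74.0 and that of the last decile at 43.2. The middle was wide: partners of phospho-CREB decile 5 ran from percentile 58.9 to 83.4 between quartiles. Of the 534 matched sites in the least dense phospho-CREB decile, 1 had a partner in the densest total CREB decile.

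**Figure D2:**
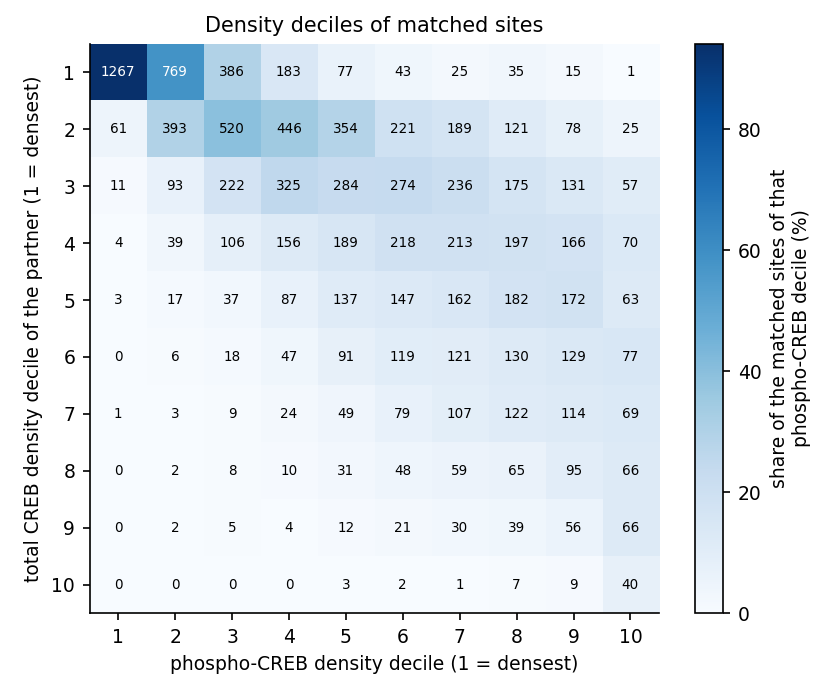
Matched sites by the density decile of the phospho-CREB site (x axis, 1 the densest) and of its densest total CREB partner (y axis, 1 the densest); numbers are sites and shading is the share (%) of the matched sites of each phospho-CREB decile. The top left cell holds 1267 sites, 94.1% of its column, and the columns spread out to the right.

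The densest phospho-CREB site was also the densest total CREB site. It lay at chr7:52972850-52973971 (mm9 throughout), had a density of 1870 in the phospho-CREB list, and its partner at chr7:52972711-52974114 had 510 in the total CREB list. That site was in 10 of the 11 other lists, including phospho-CREB of untreated hepatocytes and of fasted and fed liver, and was absent from the GR list. The next phospho-CREB sites lay at chr6:122565608-122566457 with a density of 1228, chr1:92499426-92500583 with 1038, chr2:31829317-31830643 with 971 and chr10:7512115-7513226 with 911. Their partners stood at ranks 104, 24, 13 and 12 of the total CREB list. All 5 sites were in the total CREB lists of untreated hepatocytes, of glucagon with corticosterone, and of fasted and fed liver, and none of the 5 was in the GR list. Genes are not named at these sites, since an mm9 annotation was not used here.

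A few dense phospho-CREB sites stood alone. In the densest decile 9 phospho-CREB sites had no total CREB site, and 5 of those 9 were in none of the other 12 lists. The densest lay at chr2:22442608-22446015, was 3408 bp wide and had a density of 481, which placed it at rank 53 of the list. The following ones, at chr4:32635270-32636437 (density 266), chr17:20535022-20535810 (201) and chr16:76540607-76541520 (168), were also found in no other list. The next, at chr19:27386858-27387900 (134), was in the total CREB and the GR lists of cells given glucagon with corticosterone.

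The 2182 phospho-CREB sites without total CREB in the glucagon list were less often in the other total CREB lists of hepatocytes than the 11378 matched ones, though many were there. Of the 2182, 1316 (60.3%, 58.2 to 62.3%) lay at a total CREB site of untreated cells or of cells given glucagon with corticosterone, and 568 lay at one in both. The list of glucagon with corticosterone held 11211 of the 11378 matched sites (98.5%) and 1091 of the 2182, and the untreated list held 10423 (91.6%) and 793 (36.3%). By phospho-CREB decile, those at a total CREB site of glucagon with corticosterone were 2 of 9 in the densest, 16 of 32 in decile 2 and 23 of 45 in decile 3. They were 60.6 to 76.5% in deciles 4 to 9 and 22.9% (20.1 to 25.9%) in the least dense decile. Another 614 (28.1%, 26.3 to 30.1%) were in none of the other 12 lists, and 405 of these 614 came from the least dense decile. Few were near misses: 209 (9.58%) lay within 500 bp of a total CREB site of the glucagon list and 326 (14.9%) within 1000 bp.

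Dense total CREB sites without phospho-CREB were few and partly clustered. There were 75 in the densest total CREB decile, of which 15 lay on chromosome 6 and 7 on chromosome 17. The densest lay at chr17:15177899-15179111 with a density of 251, chr17:15146551-15147702 with 235 and chr17:15115017-15116318 with 228. Their starts were spaced 31348 and 31534 bp apart, and all 3 were in 7 of the 11 other lists, among them the phospho-CREB lists of fasted and of fed liver. The next 2 lay at chr6:47702458-47703364 with 202 and chr6:47712814-47714127 with 196.

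Those chromosome 6 sites belong to a stretch, chosen after its values were seen, at chr6:47604303-47738705 that held 18 total CREB sites of the densest decile. Of the 18, 8 carried phospho-CREB and 10 did not. At one end, chr6:47604303-47635811, 8 sites in a row with densities of 163 to 191 and starts 4300 to 4592 bp apart carried none, and the first phospho-CREB site of the stretch began at 47689476. The sites of the stretch with phospho-CREB had total CREB densities of 60.0 to 225, a range that overlaps that of the run without it. All 8 sites of the run were in the total CREB lists of untreated hepatocytes, of glucagon with corticosterone, and of fasted and fed liver. The sequence under these sites was not used here.

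In the densest total CREB decile all 2748 sites with phospho-CREB and all 75 without it were also in the list of glucagon with corticosterone. The untreated list held 98.4% (97.9 to 98.8%) of those with phospho-CREB and 66 of the 75 without (88.0%, 78.7 to 93.6%). In that decile 76.7% (75.1 to 78.3%) of the 2748 sites with phospho-CREB lay in a 24 h fasted H3K27ac region, and 34 of the 75 without it (45.3%, 34.6 to 56.6%). The 75 are partly clustered, with 10 in the chromosome 6 stretch, while the interval treats each as a separate count. None of the 5 named above, on chromosomes 17 and 6, lay in such a region. The 3 on chromosome 17 did lie in an H3K27ac region of 10 h fasted liver. That list held 80.8% of the 2748 sites and 54.7% of the 75. The matched sites with the widest gaps of rank joined a narrow site with a wider one in all 6 cases. Phospho-CREB stood highest above total CREB at chr13:6191171-6192859, at percentile 83.3 against 14.8, at chr16:76341998-76343058, at 81.9 against 14.6, and at chr9:119878931-119879842, at 86.6 against 21.3. It stood furthest below at chr4:114673033-114673366, at percentile 8.26 against 94.3, at chr11:5909524-5910003, at 3.03 against 88.6, and at chr19:7569579-7569830, at 3.13 against 88.0. In those last 3 the phospho-CREB site was 252 to 480 bp wide.

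Phospho-CREB in the glucagon list lay largely where total CREB was listed without hormone. Of all phospho-CREB sites 82.7% lay at a total CREB site of untreated hepatocytes, and 74.0% of total CREB sites of the glucagon list did. The share was 91.6% (91.1 to 92.1%) of phospho-CREB sites with total CREB and 36.3% (34.4 to 38.4%) of those without. Of the 7342 total CREB sites absent from the untreated list, 13.8% (13.1 to 14.6%) carried phospho-CREB, against 49.7% (49.0 to 50.3%) of the 20887 present in it. Absent sites were less dense, with 2177 of them in the last decile, but the order held within every decile: 83.0% against 97.6% in the densest, 29.0% against 37.8% in decile 5 and 1.47% against 8.22% in the last. The intervals overlapped in deciles 2, 3, 4 and 6. The untreated list is the longest of the hepatocyte lists, at 47596 sites, and rests on 1 sample.

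The total CREB lists of liver held the same order. Total CREB of fasted liver was found at 34.7% (33.8 to 35.6%) of phospho-CREB sites with total CREB and at 6.92% (5.93 to 8.06%) of those without. It was found at 34.5% (33.7 to 35.4%) of total CREB sites with phospho-CREB and at 5.85% (5.50 to 6.21%) of those without, a difference of 28.7 points that was 5.09 points (4.16 to 6.02) at like total CREB density. Phospho-CREB of fasted liver was found at 5.62% (5.22 to 6.06%) of phospho-CREB sites with total CREB and at 5.68% (4.79 to 6.73%) of those without, and these intervals overlap. Phospho-CREB of fed liver was found at 12.1% (11.6 to 12.8%) and 5.82% (4.91 to 6.88%) of these classes. Averaged at like phospho-CREB density, the share of sites with total CREB minus that of sites without was -4.09 points (-5.06 to -3.13) for phospho-CREB of fasted liver, with the share higher at sites with total CREB in 1 of 10 deciles. That decile was the densest, at 36.2% of the 1347 sites with total CREB against 0 of the 9 without. The 9 give it little weight in the average. In the least dense decile the shares were 0.936% and 7.91%. For phospho-CREB of fed liver the average difference was -2.28 points (-3.24 to -1.32), but the share was higher at sites with total CREB in 5 of 10 deciles, among them the densest 4, and lower in the least dense decile, at 0.749% against 8.88%. For total CREB of fasted liver the difference stayed positive, at 11.7 points (10.4 to 13.1). For phospho-CREB of untreated hepatocytes, found at 4.42% and 3.48% of these classes, the average difference was -1.45 points (-2.38 to -0.512).

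**Figure D3:**
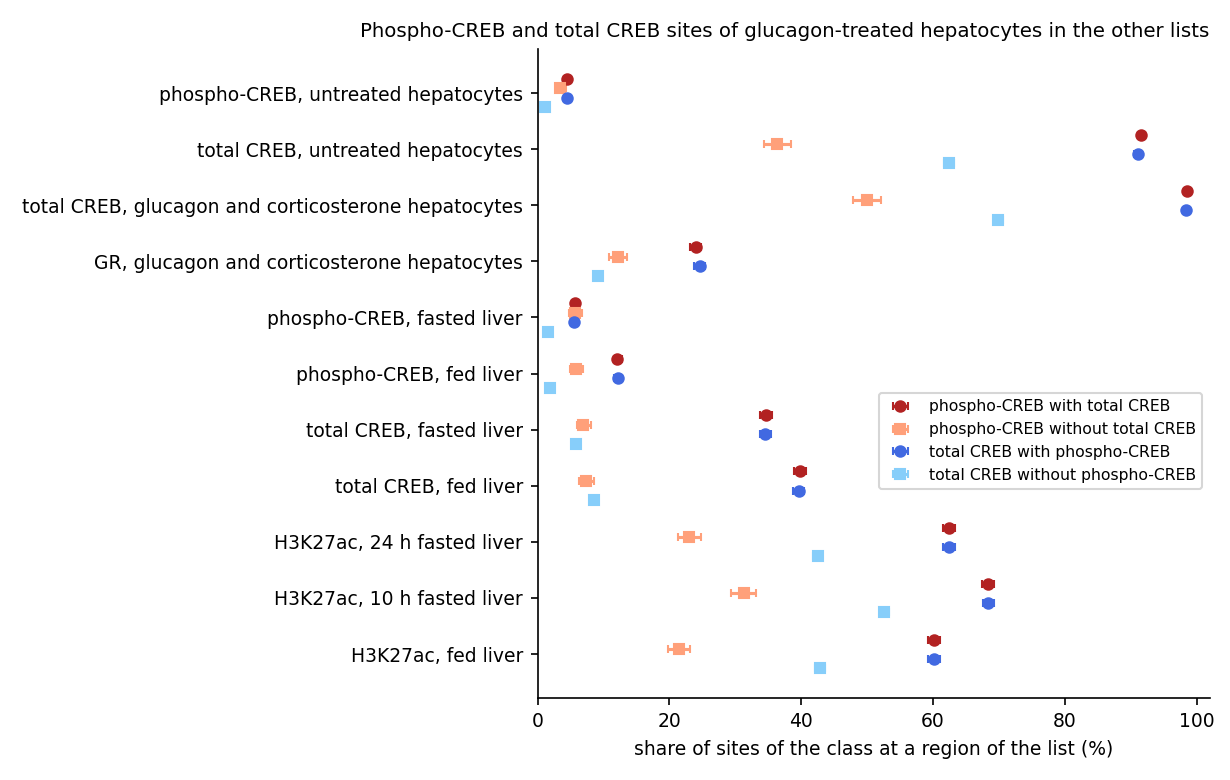
Share of sites (%) found in each of the other 11 lists, for phospho-CREB sites with and without total CREB and total CREB sites with and without phospho-CREB; points are shares of the class and bars 95% Wilson intervals, often smaller than the point. The sites in both lists (circles) reach 91.6% in the untreated list of total CREB, and the phospho-CREB sites without total CREB reach 36.3% there.

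GR, the receptor of the fasting glucocorticoid, was listed at 22.1% of all phospho-CREB sites and at 15.4% of all total CREB sites. Dense phospho-CREB sites held it most often, at 41.6% (39.0 to 44.2%) of the densest decile and 10.3% (8.75 to 12.0%) of the last. Sites of these deciles had median widths of 1018 bp and 351 bp, and this trend was not split by width. Total CREB sites with phospho-CREB lay at a GR site in 24.6% (23.8 to 25.4%) of cases and those without in 9.17% (8.75 to 9.62%). At like density of total CREB the gap remained: 33.0% against 29.3% in the densest decile, with overlapping intervals, 22.5% against 11.7% in decile 3, 16.4% against 7.51% in decile 5 and 35.3% against 12.1% in the last. The share was higher with phospho-CREB in all 10 deciles. Averaged over deciles, with each weighted by the sizes of its classes, the difference was 10.1 percentage points (8.97 to 11.2, a normal interval for counting error).

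That difference was 9.32 points when each decile was also split by width; sites with phospho-CREB were the wider ones within deciles (774 bp against 691 bp at the median of decile 3). It was 3.68 points when sites were ranked by z-score, 17.7 in the denser 50% of each list, and 4.90 on chromosomes 1, 2, 7 and 10 alone against 12.5 on the others. From the other side, phospho-CREB sites with total CREB exceeded those without by 1.84 points (0.0712 to 3.61) in GR share at like phospho-CREB density. The share was higher with total CREB in 6 of 10 phospho-CREB deciles. It was 41.7% of 1347 sites with total CREB against 2 of 9 without in the densest decile. In decile 3 the shares were 32.7% and 37.8%, and in decile 5 they were 20.1% with total CREB and 20.2% without. The GR list is of cells given corticosterone as well, which the cells of the total CREB list were not.

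H3K27ac was found more often at phospho-CREB sites that met total CREB than at those that did not. A 24 h fasted H3K27ac region was found at 56.1% of all phospho-CREB sites and 50.5% of all total CREB sites. It was found at 62.4% (61.5 to 63.3%) of phospho-CREB sites with total CREB and 23.0% (21.3 to 24.8%) of those without. At like phospho-CREB density the difference was 32.2 points (29.8 to 34.6), and it was positive in all 10 deciles, as with 59.3% against 38.8% in decile 5. It was 32.2 points for the H3K27ac list of 10 h fasted liver and 32.9 points for that of fed liver. These differences were not split by width, and sites without total CREB were narrower in the whole list (467 bp against 695 bp at the median). Total CREB sites with phospho-CREB lay in such a region in 62.4% (61.5 to 63.3%) of cases, and those without it in 42.5% (41.8 to 43.2%).

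At like total CREB density this last order did not hold throughout. With phospho-CREB the H3K27ac share was 76.7% against 45.3% without in the densest decile, but 56.3% against 68.2% in decile 4 and 53.9% against 63.5% in decile 5. The 45.3% rests on 75 sites, which are partly clustered as given above. The share with phospho-CREB was the higher one in 4 of 10 deciles, the first 2 and the last 2, and the intervals overlapped in deciles 2, 3, 8 and 9. The average difference was -4.89 points (-6.35 to -3.44), and it depended on the processing. It was 8.83 points (7.40 to 10.3) when sites were ranked by z-score. With a gap of up to 500 bp counted as overlap it was 0.0284 (-1.38 to 1.44). On chromosomes 1, 2, 7 and 10 alone it was 0.352 (-2.48 to 3.18), against -7.12 (-8.85 to -5.38) on the others. The average differences were -6.59 points for the 10 h fasted and -6.90 points for the fed H3K27ac list. These comparisons were added after their values were seen. The H3K27ac lists are of whole liver, the CREB lists of isolated hepatocytes.

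**Figure D4:**
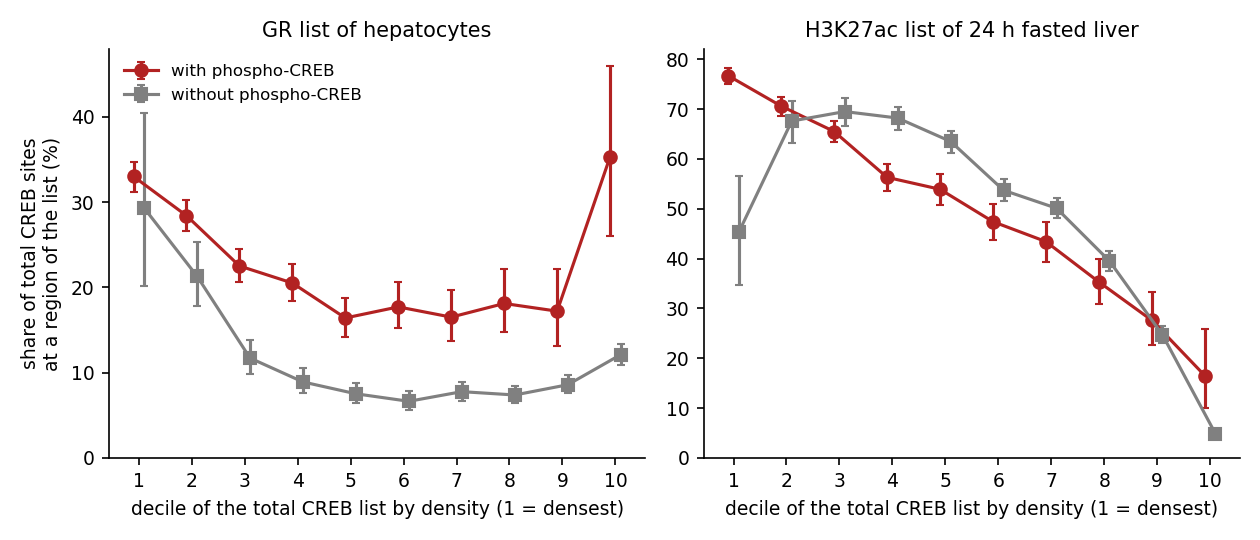
Share (%) of total CREB sites of glucagon-treated hepatocytes in the GR list (left) and in the H3K27ac list of 24 h fasted liver (right), by decile of total CREB density (1 the densest), for sites with phospho-CREB (red circles) and without it (grey squares); bars are 95% Wilson intervals. The red points lie above the grey ones in all 10 deciles on the left, and in the first 2 and last 2 on the right. The first grey point of each panel rests on 75 sites that are partly clustered.

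Combined, 2732 phospho-CREB sites (20.1% of the list) lay at both a total CREB and a GR site, with a median phospho-CREB density of 38.4. The 8646 with total CREB and without GR had a median density of 20.2. An H3K27ac region of 24 h fasted liver was at 59.2% (57.4 to 61.1%) of the sites with both and at 63.4% (62.4 to 64.4%) of those with total CREB and without GR. Without total CREB it was at 24.1% (19.3 to 29.5%) of the 266 with GR and 22.9% (21.0 to 24.8%) of the 1916 with neither.

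The chromosomes on which the phospho-CREB list stood apart also differed in the overlap. Phospho-CREB was listed at 48.0 to 52.6% of the total CREB sites of chromosomes 1, 2, 7 and 10, and at 27.8 to 39.9% of those of each other chromosome, the lowest being X. Pooled, the shares were 51.2% (3610 of 7057 sites) and 36.7% (7778 of 21172 sites). The difference held within every decile of total CREB density, with 98.8% and 96.9% in the densest, 54.2% and 30.4% in decile 5 and 5.42% and 2.22% in the last. In the other direction, 80.0% (78.8 to 81.1%) of the phospho-CREB sites of these chromosomes lay at a total CREB site, against 85.8% (85.1 to 86.5%) elsewhere. By phospho-CREB decile these shares were 99.6% and 99.2% in the densest, 87.3% and 92.1% in decile 5, and 26.7% and 45.0% in the last. Median densities of the total CREB list were 10.6 and 10.5 on the 2 sets of chromosomes, and those of the phospho-CREB list were 20.7 and 19.4. The fall of the shares with density was present on both sets.

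**Figure D5:**
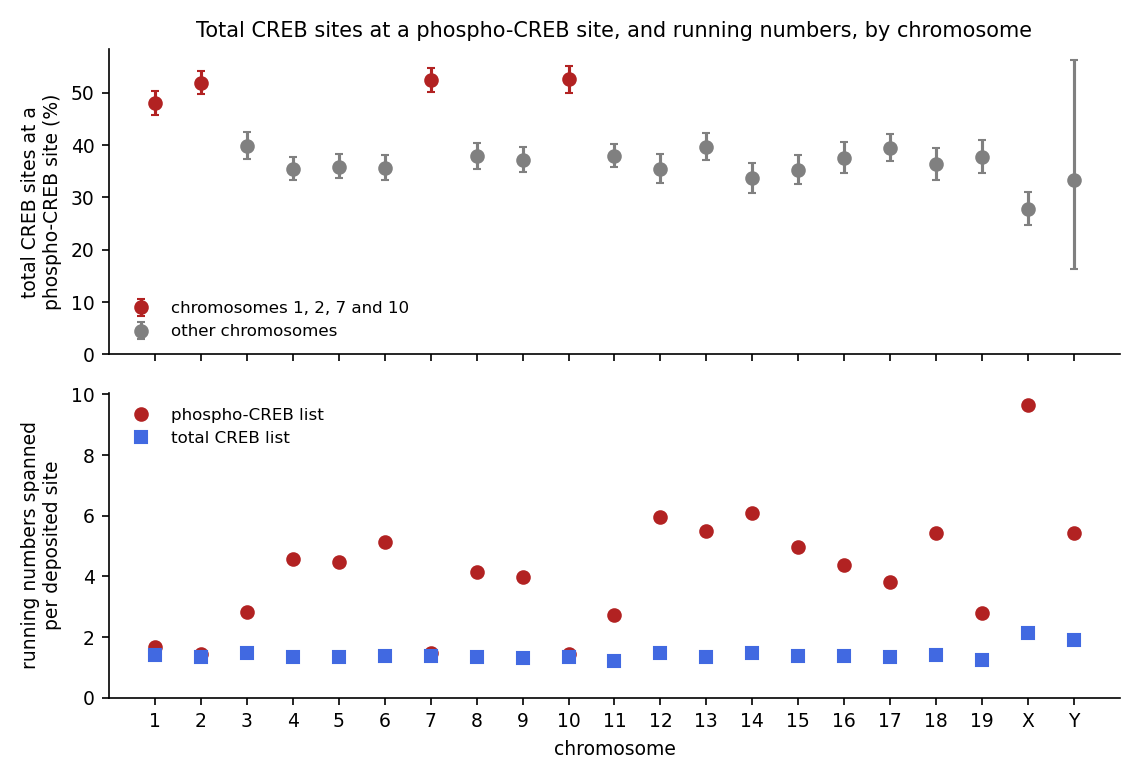
Upper panel, share (%) of the total CREB sites of each chromosome at a phospho-CREB site, with 95% Wilson intervals, for chromosomes 1, 2, 7 and 10 (red) and the others (grey); lower panel, running numbers spanned per deposited site in the phospho-CREB list (red circles) and the total CREB list (blue squares). The 4 red chromosomes of the upper panel, at 48.0 to 52.6%, are those where the phospho-CREB list spanned under 2 running numbers per site.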

How the data were processed

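Chromatin immunoprecipitation libraries of mouse liver and hepatocytes were deposited as lists of regions in build mm9, per the submitters' processing notes, which also name CASAVA 1.8. The names of the hepatocyte lists carry 1 or 2 library numbers and a false discovery rate tag. The sources used here give neither the aligner nor the peak caller's settings. Per the file headers, the authors' peak calling gave each region its greatest tag density, which is a signal. Per the file headers, the authors also computed a score, the z-score, for each region before they deposited the lists, on a scale not given. A running number per region is another deposited value. The normalisation of the authors' signal is not stated. The phospho-CREB hepatocyte lists match no sample and are known by name only.

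Sites were matched when they shared at least 1 base; each phospho-CREB site was paired with the densest total CREB site it touched. Lists were cut into 10 deciles by density. Shares have 95% Wilson intervals, and no replicate test was possible, since each list gives 1 value per site. Differences at like density are means over deciles weighted by n with times n without over n. The named sites are the 5 densest matched phospho-CREB sites, the 5 densest unmatched sites of each list and the 3 widest rank gaps in each direction, with chromosome 18 passed over; planned gene and motif matches were not run, for want of an mm9 genome. The members and lists were chosen with earlier results of these data known. Alternatives changed the overlap, the length of the lists, the ranking and the chromosomes. Matching was tested on simulated lists. Python 3.11.15, pandas 2.3.3, numpy 2.4.6 and SciPy 1.17.1 were used.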

Additional observations from a re-analysis of the deposited data

How the results depend on the processing

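The rank correlation and the GR difference kept their sign under all alternatives run. Nearly equal numbers of sites were matched in the 2 lists, 11378 of 13560 and 11388 of 28229. Which of the 2 shares is larger therefore follows from the list lengths and is not a result of its own. At equal list length they lay close together for the same reason (67.2 to 68.7% and 66.3 to 67.9%). The H3K27ac difference changed sign under 3, of which only the ranking by z-score gave an interval with both ends positive. Depth, and how the authors filtered each list, limit the values and are not known. Leaving out a replicate could not be run, and no paired analysis was possible because the lists give 1 value per site for the libraries together. Why values moved was not tested. Differences at like phospho-CREB density were not run under these alternatives. Values are given in the order phospho-CREB share (83.9% as reported), total CREB share (40.3%), densest phospho-CREB decile (99.3%), densest total CREB decile (97.3%), rank correlation (0.739), GR difference (10.1 points) and H3K27ac difference (-4.89 points), and those left out lay inside the interval of the reported value. With 50% of the shorter region shared, the phospho-CREB share was 82.9% and the total CREB share 39.7%. With a gap of up to 500 bp the shares were 85.4% and 42.9%, the correlation 0.726, the GR difference 11.3 and the H3K27ac difference 0.0284. With 500 bp windows around midpoints the phospho-CREB share was 82.8%, the densest deciles 98.2% and 96.2%, the correlation 0.748 and the differences 8.30 and -1.85. With lists of equal length the shares were 67.9% and 67.1%, the densest total CREB decile 98.2% and the correlation 0.718. In the upper 50% of each list the shares were 90.9% and 43.9%, the densest total CREB decile 98.1%, the correlation 0.726 and the differences 17.7 and -12.6. Ranked by z-score, the densest deciles were 98.4% and 91.0%, the correlation 0.725 and the differences 3.68 and 8.83. Without chromosomes X, Y and M all stayed inside their intervals. Without sites at a liver CREB or phospho-CREB site the shares were 75.8% and 29.7%, the densest deciles 94.4% and 80.9%, the correlation 0.590 and the differences 12.5 and -10.3. The next 2 settings and the H3K27ac difference were chosen after seeing the data. Chromosomes 1, 2, 7 and 10 alone gave shares of 80.0% and 51.2%, densest deciles of 99.8% and 98.6%, a correlation of 0.772 and differences of 4.90 and 0.352. Without these chromosomes the shares were 85.8% and 36.7%, the correlation 0.751 and the differences 12.5 and -7.12. Splitting the deciles by width, added likewise, kept both differences inside their intervals, at 9.32 and -6.31 points.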
